A study of Mus musculus with 14 samples.

Results

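The adrenergic receptors are the cell-surface receptors for noradrenaline and adrenaline, and 7 of their genes, Adra1a, Adra1b, Adra1d, Adra2a, Adra2b, Adra2c and Adrb1, were followed in the hippocampus of neonatal mice. They were taken by symbol from the 36118 genes of the deposited table, and all 7 were among the 16637 genes that passed a filter on low counts. The hippocampi came from 14 mice, 1 library each, whose breed is C57/BL6 in the labels and whose knockout line is C57BL/6N in the methods. Wild-type mice kept in room air (WT-RA, n = 4) or in hyperoxia (WT-O2, n = 4) were compared with Gsdmd knockout mice kept in room air (KO-RA, n = 3) or in hyperoxia (KO-O2, n = 3). Hyperoxia was 85% O2 from postnatal day 1 to day 14, and tissue was taken on day 15. The knockout was global, so that the deletion was present in every cell type from conception, and its allele, made by CRISPR, lacks a short stretch within the fifth exon. Gsdmd codes for gasdermin D, which forms pores in the cell membrane during inflammatory cell death. The methods describe the wild-type mice as littermates from matings of heterozygotes, but the mouse numbers of the 2 genotypes do not mix (GSD398 to GSD408 for wild type, GSD489 to GSD496 for knockout), so genotype and number range cannot be told apart. Mouse GSD408 was hyperoxic by its title and kept in room air by its treatment field. The title was followed, and receptor calls that changed under the other reading are named below.

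Noradrenaline reaches the hippocampus along axons of the locus coeruleus, whose cell bodies lie in the brainstem, so that the receptors but not the neurons that release their ligand are made in this tissue. The alpha-1 receptors (Adra1a, Adra1b, Adra1d) couple to Gq and through phospholipase C beta raise intracellular calcium. The alpha-2 receptors (Adra2a, Adra2b, Adra2c) couple to Gi and Go, lower cAMP and open potassium channels, and Adra2a and Adra2c also act as autoreceptors on noradrenergic terminals. The beta-1 receptor (Adrb1) couples to Gs and raises cAMP, which activates protein kinase A and takes part in synaptic plasticity and memory retrieval in the hippocampus.

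Adra1b and Adra2b had the widest differences between the genotypes, and the 250 bases that precede their RefSeq starts (build GRCm38.p6) are shown for that reason. Adra1b has 2 annotated starts on the minus strand of chromosome 11, and Adra2b has 1 on the plus strand of chromosome 2. Capitals mark matches on either strand to GGGCGG, the core of the GC box.
Adra1b, chr11:43836490-43836739: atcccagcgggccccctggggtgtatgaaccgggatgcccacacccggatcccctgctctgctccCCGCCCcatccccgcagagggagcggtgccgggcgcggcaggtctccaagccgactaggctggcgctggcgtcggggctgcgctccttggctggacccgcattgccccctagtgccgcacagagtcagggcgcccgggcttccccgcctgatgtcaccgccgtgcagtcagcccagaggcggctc
Adra1b, chr11:43901238-43901487: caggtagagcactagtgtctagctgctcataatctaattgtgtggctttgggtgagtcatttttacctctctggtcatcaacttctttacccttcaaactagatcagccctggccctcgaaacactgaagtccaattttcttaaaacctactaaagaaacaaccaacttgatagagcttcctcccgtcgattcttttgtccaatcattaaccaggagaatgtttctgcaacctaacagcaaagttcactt
Adra2b, chr2:127362929-127363178: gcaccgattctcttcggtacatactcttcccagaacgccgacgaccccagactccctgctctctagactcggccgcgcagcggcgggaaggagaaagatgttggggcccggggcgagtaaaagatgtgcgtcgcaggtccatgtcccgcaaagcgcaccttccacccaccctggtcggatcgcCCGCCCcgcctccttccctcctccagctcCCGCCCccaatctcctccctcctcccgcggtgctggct
The first Adra1b stretch was 72.8% G and C with 1 GC box, and the second was 41.6% with none. The Adra2b stretch was 66.0% G and C with 2 GC boxes. Among 32851 mouse promoters of this length, 32.74% held GGGCGG and the median G and C content was 52.4%. None of the 3 stretches held TATAAA or TGACG on either strand, which 12.37% and 17.77% of the promoters did. These are descriptions of the letters, and nothing about binding was measured.

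The libraries summed to between 27272270 and 28257496 estimated counts, so depth hardly varied. Gsdmd itself had 41 to 63 counts in the wild-type and 22 to 42 in the knockout libraries, so its transcripts were still counted in the knockout, and the deletion itself could not be checked from gene counts. The paper reports that immunostaining found no gasdermin D in knockout brains. It also reports, without showing the data, that qRT-PCR could not measure the transcript there. All 12 markers of hippocampal pyramidal and granule neurons were detected in every library. Their summed level was 616 to 987 CPM (counts scaled to library size with TMM factors) in the wild-type and 1202 to 1457 CPM in the knockout libraries. Several lists of markers for tissue beside the hippocampus or for other cell types also differed between the genotypes. The ranges did not overlap for the striatum list, at 421 to 968 CPM against 160 to 269 CPM. The same held for the cholinergic neuron list, at 4.85 to 17.0 CPM against 2.18 to 3.45 CPM, and, in the other direction, for the astrocyte list, at 3869 to 4459 CPM against 4541 to 5291 CPM. The thalamus list ran from 108 to 769 CPM against 105 to 150 CPM, and the oligodendrocyte list from 4867 to 19272 CPM against 3321 to 5812 CPM. Within the thalamus list, Gbx2 was at 0 in at least 1 of the 14 libraries. The choroid plexus list varied most within the knockout. It stood at 38.0 CPM in KO-RA replicate 1 and 107 CPM in KO-O2 replicate 2. The other knockout libraries held 1713 to 3409 CPM and the wild-type libraries 930 to 2428 CPM.

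The depth behind the receptors differed widely. Adra1d, Adra2a and Adra2c had 475 to 1053 counts in every library, Adrb1 324 to 763 and Adra1a 171 to 305. Adra1b had 248 to 522 counts in the wild-type and 83 to 149 in the knockout libraries. Adra2b was the least covered, with 13 to 75 counts in the wild-type and 3 to 10 in the knockout libraries, and it passed the filter through the wild-type groups. Its lowest library, KO-O2 replicate 3, held 3 counts, or 0.113 CPM with a 95% exact Poisson interval of 0.0232 to 0.329 CPM, which covers counting error only. Counts of Adra1d, Adra2a and Adra2c were whole numbers, to within 0.01, in all 14 libraries. Those of Adra1a and Adra1b were fractional in all 14.

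Compared per length, Adra1d was the most abundant receptor in every group. In CPM per kb of mean coding transcript length, Adra1d was at 13.4 ± 1.27 (SD, n = 4) in WT-RA, followed by Adra2a at 7.27 ± 1.60, Adrb1 at 6.77 ± 1.61, Adra1b at 5.92 ± 1.01 and Adra2c at 5.07 ± 0.0872. Neighbours in this order from Adra2a down to Adra2c overlapped. Adra1a was at 2.46 ± 0.550 and Adra2b at 0.388 ± 0.201, each below the receptors above it in every WT-RA library. In KO-RA the order was Adra1d at 17.3 ± 2.23 (n = 3), Adra2c at 6.55 ± 0.260, Adra2a at 4.82 ± 0.310, Adrb1 at 4.68 ± 0.232, Adra1a at 1.93 ± 0.127, Adra1b at 1.63 ± 0.432 and Adra2b at 0.0701 ± 0.0234. Adra2a and Adrb1 overlapped there, as did Adra1a and Adra1b. With the longest transcript in place of the mean, Adrb1 stood above Adra2a in WT-RA, KO-RA and KO-O2, and Adra2c stood above Adra1b in WT-RA and above Adra2a in WT-O2.

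The summed per-length level of the 7 receptors was 41.3 ± 2.21 CPM per kb in the WT-RA libraries (n = 4) and 37.8 ± 1.97 in WT-O2 (n = 4). KO-RA stood at 37.0 ± 1.86 (n = 3) and KO-O2 at 38.1 ± 1.80 (n = 3), and the WT-RA range of 38.5 to 43.9 touched all but that of KO-RA, 34.8 to 38.3. The makeup of the sum differed between the genotypes. Adra1d made up 33.8% ± 3.23 of it in the 8 wild-type and 48.5% ± 3.54 in the 6 knockout libraries, while Adra1b made up 12.5% ± 2.54 and 4.19% ± 0.960. Adra2a went from 18.0% ± 2.63 to 12.2% ± 1.32, and Adra2c from 14.5% ± 2.66 to 17.8% ± 1.13.

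**Figure D1:**
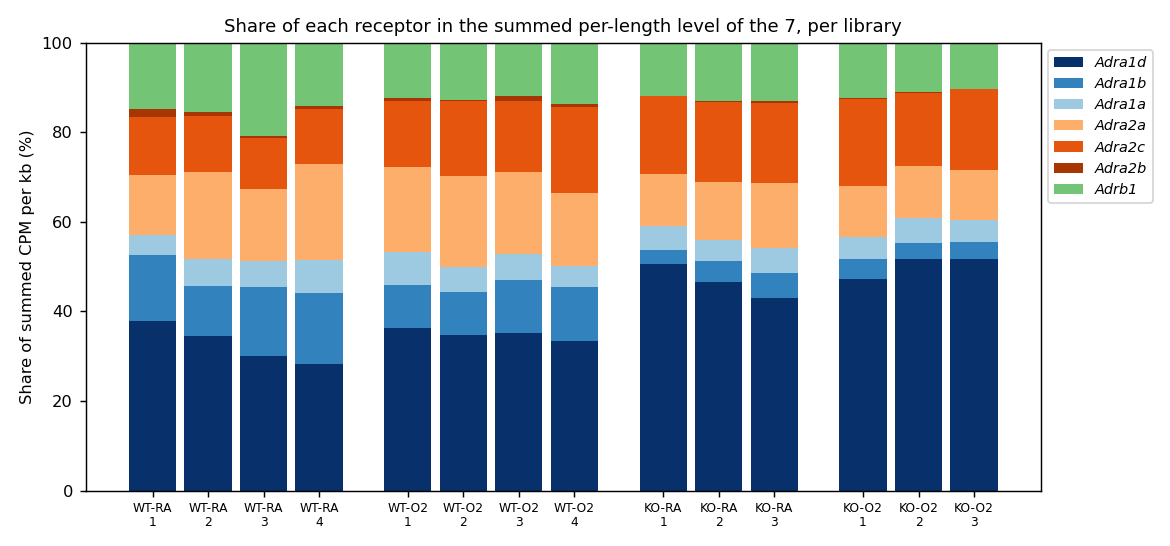
Share (%) of each receptor in the summed CPM per kb of the 7 receptors, 1 stacked bar per library, labelled by group and replicate. Adra1d (darkest blue) takes 28.2% to 37.9% of each wild-type bar and 42.9% to 51.8% of each knockout bar, and Adra1b (mid blue) takes 9.46% to 15.9% against 2.98% to 5.61%.

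Receptors were called between the genotypes and none was called between the exposures. Calls were made with the study's own rule, here an absolute log2 fold change of 0.32 or more together with p under 0.05 and q under 0.1 (Benjamini-Hochberg over the 16637 genes), from edgeR's quasi-likelihood test. In room air, 6 of the 7 receptors were called between KO and WT, 2 higher and 4 lower, where 10.4% of all genes were called, 3.75% higher and 6.7% lower. In hyperoxia, 4 of the 7 were called, 1 higher and 3 lower, where 6.86% of all genes were called, 2.51% higher and 4.35% lower. Without Adra2b, which could pass the filter only by being high in wild type, the counts were 5 and 3 of 6. The libraries of KO and WT did not overlap for 6 receptors in room air and 4 in hyperoxia, as was so for 19.6% and 19% of all genes. Both counts include Adra2b. Over the 7 receptors, again with Adra2b, the median log2 fold change was -0.53 in room air and -0.17 in hyperoxia. Over all genes it was -0.01 in both. Averaged over the exposures, 5 of the 7 were called, 1 higher and 4 lower, where 12% of all genes were. The averaged call of Adrb1 (log2 fold change -0.35) fell short of the fold threshold with mouse GSD408 counted as room air (-0.29), without WT-RA replicate 3 (-0.26) and without WT-O2 replicate 4 (-0.31).

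No receptor was called between WT-O2 and WT-RA, where 0.643% of all genes were called, or between KO-O2 and KO-RA, where 0.012% were. By unadjusted p below 0.05, edgeR counted 3 receptors in the first comparison and 0 in the second, against 2027 and 809 of all genes. DESeq2 called 2 in the first, Adra1b and Adrb1, and 306 genes in all, against 107 by edgeR. The edgeR calls there were 3 genes lower and 3 higher when mouse GSD408 was counted as room air. The groups did not overlap for 2 receptors in the first, where 5.97% of all genes did not overlap, and for 0 in the second, where 11.7% did not. The interaction of genotype and exposure, which tests whether the KO difference depended on exposure, called 0% of all genes and no receptor. By unadjusted p below 0.05 it counted 0 receptors and 673 genes. The KO-RA, WT-RA, WT-O2 and KO-O2 comparisons share libraries, so their values are given side by side and are not independent.

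**Figure D2:**
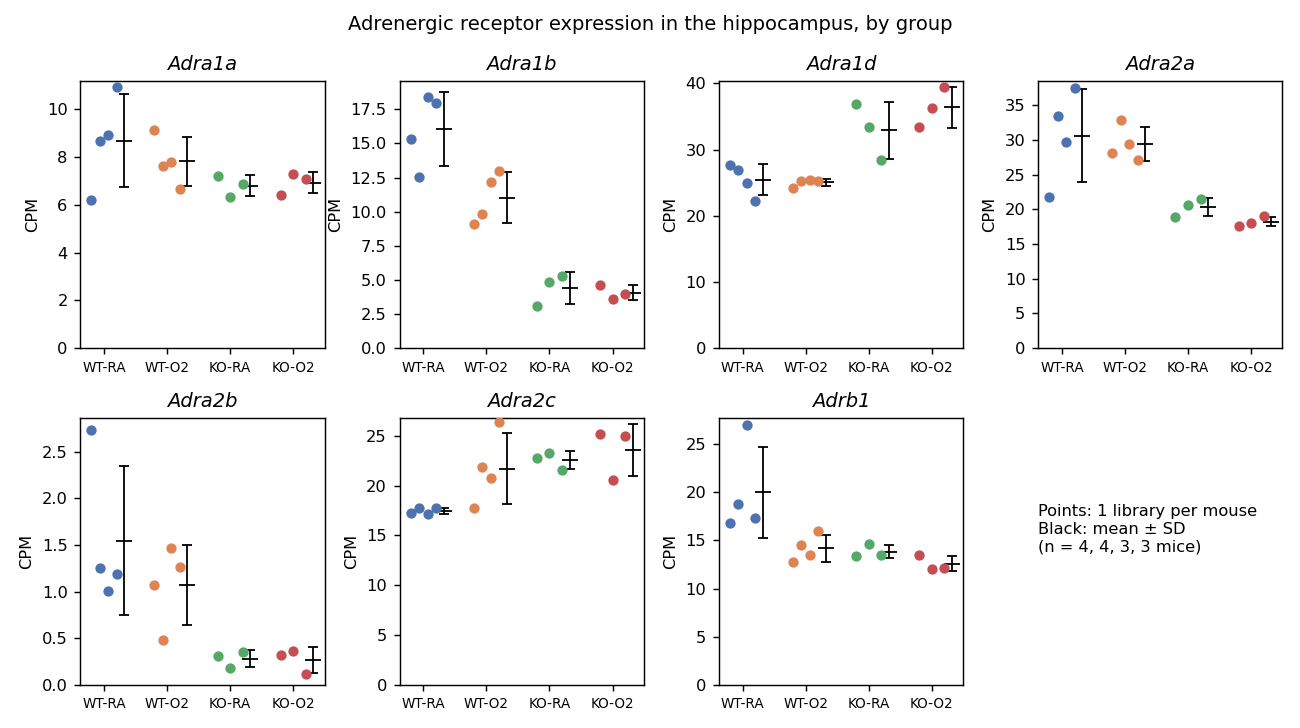
CPM (y axis, from 0) of each receptor in the 4 groups (x axis), 1 point per mouse, with the group mean ± SD in black. Adra1b and Adra2b lie lower in all 6 knockout than in all 8 wild-type libraries, Adra2a likewise, and Adra1d lies higher.

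Adra1b fell most firmly. It was at 15.3, 12.5, 18.4 and 18.0 CPM in the WT-RA libraries (replicates 1 to 4) and at 9.07, 9.83, 12.2 and 13.0 CPM in the WT-O2 libraries. It was at 3.09, 4.87 and 5.30 CPM in the KO-RA and at 4.63, 3.57 and 3.98 CPM in the KO-O2 libraries. The highest knockout library thus lay below the lowest wild-type library. Adra1b was 3.63-fold lower in KO-RA than in its WT-RA counterpart, with a log2 fold change of -1.86 ± 0.20 (SE) and q = 0.000101 by edgeR's quasi-likelihood test. Against WT-O2, KO-O2 was 2.72-fold lower, at -1.44 ± 0.20 and q = 0.00103. WT-O2 libraries averaged below WT-RA at a log2 difference of -0.54, with a 95% interval of -0.90 to -0.18 and q = 0.197 by edgeR, and replicate 2 of WT-RA overlapped with WT-O2. KO-O2 and KO-RA differed by -0.13, with an interval of -0.58 to 0.33.

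Adra1d moved the other way. It was at 27.7, 26.9, 25.02 and 22.3 CPM in WT-RA and at 24.2, 25.3, 25.5 and 25.2 CPM in WT-O2. The KO-RA libraries held 36.8, 33.4 and 28.4 CPM and the KO-O2 libraries 33.4, 36.2 and 39.5 CPM, all above every wild-type library. The log2 fold change was 0.37 ± 0.09 in room air (q = 0.0198) and 0.54 ± 0.09 in hyperoxia (q = 0.00355), by edgeR. Between the exposures it differed by -0.02 in wild type (interval -0.21 to 0.16) and by 0.15 in knockout (interval -0.06 to 0.35). Its exons overlap the opposite-strand gene Gm14285 in the GENCODE M21 annotation, and since the counting is not stated to use strand, reads of the pair cannot be told apart. Its room air call was lost without KO-RA replicate 1 (log2 fold change 0.28, q = 0.124) and without WT-RA replicate 4, where the fold fell short of the threshold at 0.31.

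Adra1a was not called in any comparison. It was at 6.21, 8.65, 8.92 and 10.9 CPM in WT-RA and at 9.14, 7.64, 7.79 and 6.68 CPM in WT-O2. The KO-RA libraries held 7.21, 6.32 and 6.87 CPM and the KO-O2 libraries 6.43, 7.27 and 7.06 CPM. All groups overlapped. The log2 difference of KO from WT was -0.35 in room air, with an interval of -0.69 to -0.02 and q = 0.185 by edgeR, and -0.17 in hyperoxia, with an interval of -0.51 to 0.16. Without WT-RA replicate 1, the library with the highest thalamus sum, the room air difference was called at q = 0.0324.

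Among the alpha-2 receptors, Adra2a fell in both genotype comparisons. Adra2a was at 21.7, 33.5, 29.8 and 37.5 CPM in WT-RA and at 28.1, 32.9, 29.4 and 27.2 CPM in WT-O2, against 18.9, 20.6 and 21.4 CPM in KO-RA and 17.6, 18.1 and 19.0 CPM in KO-O2. The lowest wild-type library, WT-RA replicate 1 at 21.7 CPM, lay just above the highest knockout library. The log2 fold change was -0.59 ± 0.14 in room air (q = 0.0133) and -0.69 ± 0.14 in hyperoxia (q = 0.00835), by edgeR. The exposures differed by -0.06 in wild type, with an interval of -0.32 to 0.21, and by -0.16 in knockout, with an interval of -0.47 to 0.16.

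Adra2b was rare in all groups. It was at 2.73, 1.253, 1.00 and 1.19 CPM in WT-RA and at 1.07, 0.478, 1.47 and 1.26 CPM in WT-O2. The KO-RA libraries held 0.305, 0.176 and 0.356 CPM and the KO-O2 libraries 0.322, 0.368 and 0.113 CPM. No knockout library reached any wild-type library. Against WT-RA, KO-RA was 5.52-fold lower (log2 fold change -2.46 ± 0.50) and against WT-O2, KO-O2 was 3.91-fold lower (-1.97 ± 0.51), with wide intervals of -3.53 to -1.40 and -3.06 to -0.88. Since Adra2b passed the filter through the wild-type groups, these are given as a description. In the edgeR fit with no filter on low counts, the values were -2.45 (q = 0.00209) and -1.95 (q = 0.0223). With the filter and without KO-O2 replicate 3, the hyperoxia call was lost at a log2 fold change of -1.61.

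Adra2c rose in KO-RA against WT-RA and was not called in hyperoxia. It was at 17.3, 17.7, 17.1 and 17.7 CPM in WT-RA and at 17.8, 21.9, 20.8 and 26.4 CPM in WT-O2. It was at 22.8, 23.3 and 21.6 CPM in KO-RA and at 25.2, 20.5 and 25.01 CPM in KO-O2. All WT-O2 libraries lay above all WT-RA libraries, which no longer held with mouse GSD408 (26.4 CPM) counted as room air. The log2 fold change of KO-RA against WT-RA was 0.37 ± 0.11 (q = 0.0443), and that of KO-O2 against WT-O2 was 0.12 with an interval of -0.11 to 0.35. WT-O2 differed from WT-RA by 0.31, with an interval of 0.10 to 0.53 and q = 0.216 by edgeR. Over the alternative fits this difference ran from 0.07 to 0.40. With mouse GSD408 counted as room air, the KO-RA call was lost (log2 fold change 0.23, q = 0.322), and it was also lost without KO-RA replicate 1 (log2 fold change 0.36, q = 0.131) or replicate 2 (0.35, q = 0.130).

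Adrb1, the beta receptor followed here, fell in KO-RA against WT-RA. It was at 16.8, 18.8, 27.0 and 17.3 CPM in WT-RA and at 12.7, 14.5, 13.5 and 16.0 CPM in WT-O2. The KO-RA libraries held 13.3, 14.6 and 13.5 CPM and the KO-O2 libraries 13.5, 12.1 and 12.1 CPM. The 4 WT-RA libraries stood above all others, and the other groups overlapped. The log2 fold change of KO-RA against WT-RA was -0.53 ± 0.14 (q = 0.0279). WT-O2 differed from WT-RA by -0.49, with an interval of -0.77 to -0.22 and q = 0.136 by edgeR, which misses the threshold. Of 24 alternative fits, 6 called this difference, among them that of DESeq2 (q = 0.0258). KO-O2 against WT-O2 stood at -0.17, with an interval of -0.48 to 0.13. Without KO-RA replicate 1, the room air call was lost at q = 0.106 and a log2 fold change of -0.51. The interaction for Adrb1 had the smallest p of the receptors, 0.0937, at a log2 value of 0.36 and q = 1 by edgeR.

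**Figure D3:**
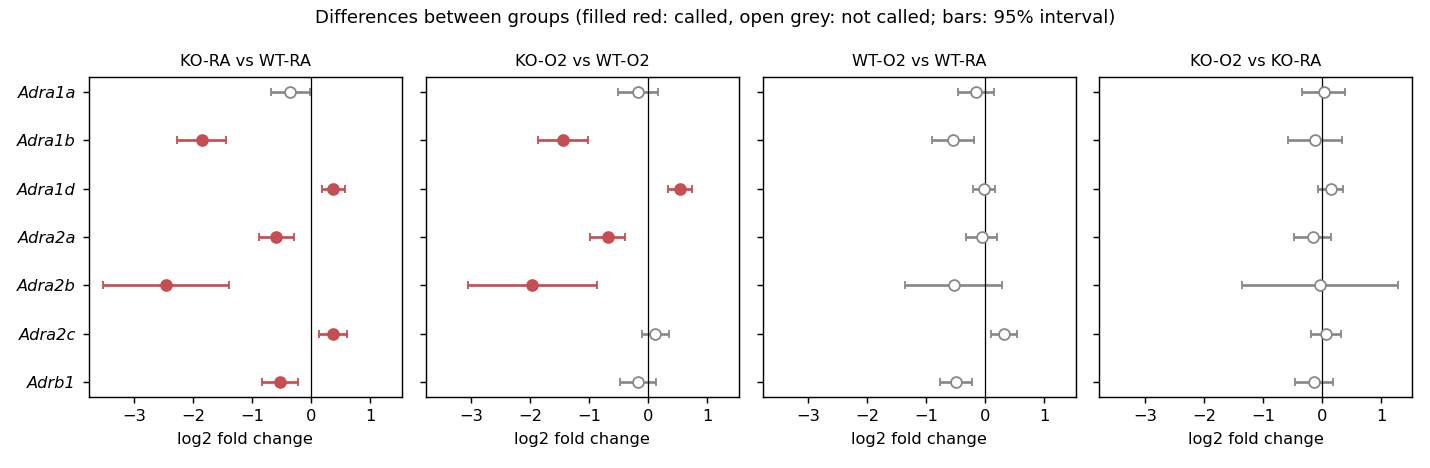
log2 fold change (x axis) of each receptor (y axis) in 4 comparisons, with 95% intervals from edgeR. Filled red points were called and open grey points were not. The called points are all in the 2 genotype panels, 6 in room air and 4 in hyperoxia.

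Markers of neighbouring tissue and of several cell types also differed between the genotypes, and no correlation of the receptors with these lists was computed. Of the 10 striatum markers, 10 were lower in KO in room air and 10 in hyperoxia. Of the 10 thalamus markers, 7 and 6 were lower, and of the 7 oligodendrocyte markers, 7 and 4. All 5 cholinergic markers were lower in both, 4 and 1 of the 6 neocortex markers and 3 and 1 of the 6 interneuron markers were lower, and 2 of the 8 astrocyte markers were higher in each. Of the 12 hippocampal neuron markers, 10 and 5 were higher. Of the 6 habenula markers, 2 and 0 were lower, and of the 4 meninges markers 1 and 0 were higher. No microglia (7), endothelium and mural (8) or choroid plexus (6) marker was called in either. Of all genes, 6.7% were lower and 3.75% higher in room air, and 4.35% and 2.51% in hyperoxia. WT-RA replicate 3 had a thalamus sum of 108 CPM, within the knockout range, and a striatum sum of 606 CPM, above the knockout range. Its neocortex sum, 340 CPM, was the highest of all libraries. The same library held Adra1b at 18.4 CPM and Adrb1 at 27.0 CPM. Scores of the thalamus and striatum lists, each the mean over the list of log2 CPM scaled per gene, were then added as covariates. With them no receptor was called between the genotypes in room air, in hyperoxia or averaged, and only 5, 1 and 13 of all genes were. Those 2 scores together had an R2 of 91.3% with genotype, so that fit could hardly separate them. In that fit, the log2 differences in room air and hyperoxia were -1.02 and -0.58 for Adra1b, 0.09 and 0.27 for Adra1d, -0.43 and -0.55 for Adra2a and -0.39 and -0.06 for Adrb1. They were -2.31 and -1.81 for Adra2b, -0.85 and -0.70 for Adra1a and 0.82 and 0.58 for Adra2c, the last pair of genes with larger values than in the fit without scores. Without WT-RA replicate 1 and WT-O2 replicate 4, the 2 wild-type libraries with the highest thalamus sums, left out after seeing the data, the fit called 7 receptors in room air, with 1723 of all genes, and 4 in hyperoxia, with 990. The part of neighbouring tissue in the receptor differences was not tested beyond this, and in bulk tissue fewer cells of a type and less RNA per cell cannot be told apart.

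**Figure D4:**
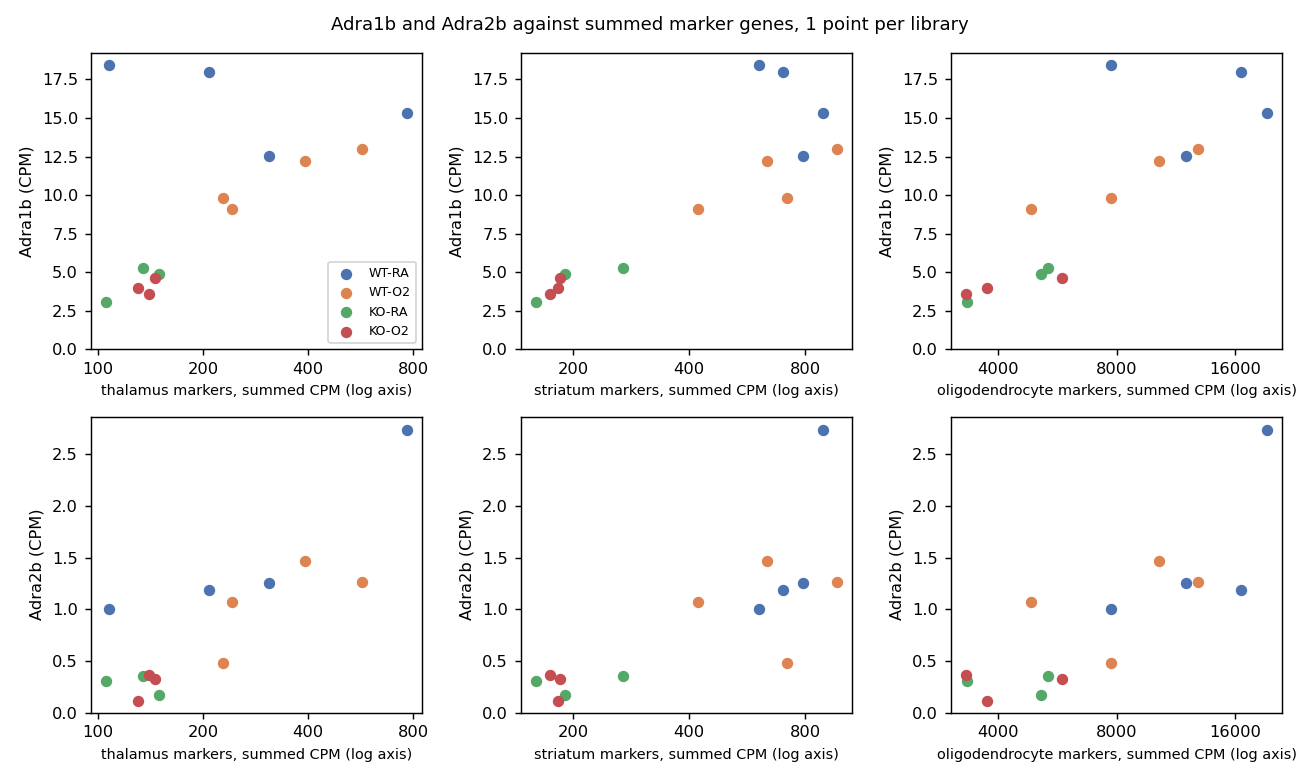
CPM of Adra1b (top) and Adra2b (bottom) on the y axis against the summed CPM of thalamus, striatum and oligodendrocyte markers on log x axes, 1 point per library coloured by group. The knockout libraries sit at the lower left of each panel, and 1 WT-RA library sits at a thalamus sum of 108 CPM with Adra1b at 18.4 CPM.

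Among genes of noradrenaline supply, the tissue held little sign of noradrenergic cell bodies. Slc6a2, the noradrenaline transporter of those neurons, had 0 to 10 counts per library. Th, the rate-limiting enzyme of catecholamine synthesis, had 17 to 84 counts and Dbh, which makes noradrenaline from dopamine, 18 to 43. Of the 10 genes of the list, 8 could be tested, and the counts of called genes in this and the next lists stand against 6.7% of all genes lower and 3.75% higher in KO-RA, and 4.35% lower and 2.51% higher in KO-O2. Th, Ddc and Slc22a3 fell in KO-RA against WT-RA, and of these Ddc and Slc22a3 were also called, lower, in KO-O2 against WT-O2. Slc22a3, an extraneuronal monoamine transporter, was at 3.53 ± 1.27 CPM in WT-RA (n = 4) and 1.49 ± 0.587 CPM in KO-RA (n = 3), with a log2 fold change of -1.24 ± 0.29 (q = 0.0130). Ddc, the decarboxylase that makes dopamine, differed by -0.74 ± 0.22 in room air and -0.76 ± 0.23 in hyperoxia. Th differed by -1.31 ± 0.39 in room air and, not called, by -0.40 in hyperoxia.

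Of the 10 G protein alpha subunits, 1 was lower in KO in both comparisons and 9 were not called, a share near that of all genes (10.4% called in room air, 6.86% in hyperoxia). This was Gnal, the Gs-type subunit typical of striatal neurons, at 310.9 ± 31.2 CPM for WT-RA and 319.8 ± 36.0 CPM for WT-O2 (n = 4 each). The KO-RA level was 223 ± 8.44 CPM and the KO-O2 level 226 ± 9.88 CPM (n = 3 each). Its log2 fold changes were -0.48 ± 0.09 and -0.50 ± 0.09 in room air and hyperoxia. Averaged over the exposures, Gna14 of the Gq family was also called, 0.57 ± 0.23 higher on the log2 scale in KO, at a mean of under 1 CPM in every group.

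Of the 16 second-messenger enzymes, 6 fell in KO-RA against WT-RA and 10 were not called, where 6.7% of all genes were lower. In KO-O2 against WT-O2, 4 fell and 1 rose, where 4.35% of all genes were lower and 2.51% higher. Plcb4, a phospholipase C beta downstream of Gq and abundant in thalamus, was at 71.9 ± 27.8 CPM in WT-RA and 25.3 ± 5.42 CPM in KO-RA. Its log2 fold changes were -1.50 ± 0.29 in room air and -1.27 ± 0.29 in hyperoxia. Adcy5, the main adenylyl cyclase of the striatum, differed by -0.81 ± 0.12 and -0.77 ± 0.12, and the calcium-stimulated cyclase Adcy8 by -0.46 ± 0.10 and -0.47 ± 0.10. The cAMP phosphodiesterase Pde4d differed by -0.37 ± 0.06 in both, and Pde4b by -0.40 ± 0.07 in room air. Adcy7 differed by -0.33 ± 0.12 in room air, at q = 0.0981. Adcy9, another adenylyl cyclase, rose by 0.38 ± 0.10 in KO-O2 against WT-O2.

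Of the 13 second-messenger targets, 4 were lower and 1 higher in KO-RA (all genes 6.7% and 3.75%), and 2 were lower in KO-O2 (all genes 4.35%). Prkacb, a catalytic subunit of protein kinase A, was at 459 ± 73.0 CPM (WT-RA) and 448 ± 32.6 CPM (WT-O2) in wild type, against 321 ± 19.0 CPM (KO-RA) and 309 ± 9.30 CPM (KO-O2) in knockout. Its log2 fold changes were -0.52 ± 0.11 and -0.54 ± 0.11 in room air and hyperoxia, and the regulatory subunit Prkar2b differed by -0.56 ± 0.13 and -0.68 ± 0.13. Of the G protein-gated potassium channels, Kcnj9 fell by 0.60 ± 0.15 and Kcnj6 rose by 0.38 ± 0.13 in KO-RA on the log2 scale, and the cyclic nucleotide-gated channel Hcn2 differed by -0.33 ± 0.11 there. Of the 12 regulators of the receptors, 3 were lower in each genotype comparison (all genes 6.7% and 4.35%) and none was higher. The receptor kinase Grk5 differed by -0.38 ± 0.08 and -0.37 ± 0.08 and the Gq regulator Rgs2 by -0.38 ± 0.10 and -0.54 ± 0.10. Rgs4 was lower in room air, by -0.43 ± 0.11, and the scaffold Akap12 in hyperoxia, by -0.62 ± 0.14.

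Akap12 was the 1 pathway gene called between WT-O2 and WT-RA, where 0.643% of all genes were called. It was at 31.0 ± 5.01 CPM in WT-RA and 45.2 ± 7.88 CPM in WT-O2 (n = 4 each), with a log2 fold change of 0.54 ± 0.13 and q = 0.0969 by edgeR. Its level was 28.2 ± 3.74 CPM in KO-RA and 29.4 ± 1.61 CPM in KO-O2 (n = 3 each). With mouse GSD408 counted as room air, only 3 genes lower and 3 higher were called between WT-O2 and WT-RA. The Akap12 call was not followed in that fit. None of the tested genes among the 61 on the pathway lists was called between KO-O2 and KO-RA, where 0.012% of all genes were. The median log2 fold changes of KO against WT in room air and hyperoxia were -0.07 and -0.11 over the supply genes, 0.02 and 0.01 over the G protein subunits and -0.17 and -0.19 over the enzymes. They were -0.11 and -0.06 over the targets and -0.14 and -0.16 over the regulators, against -0.01 in both over all genes tested.

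**Figure D5:**
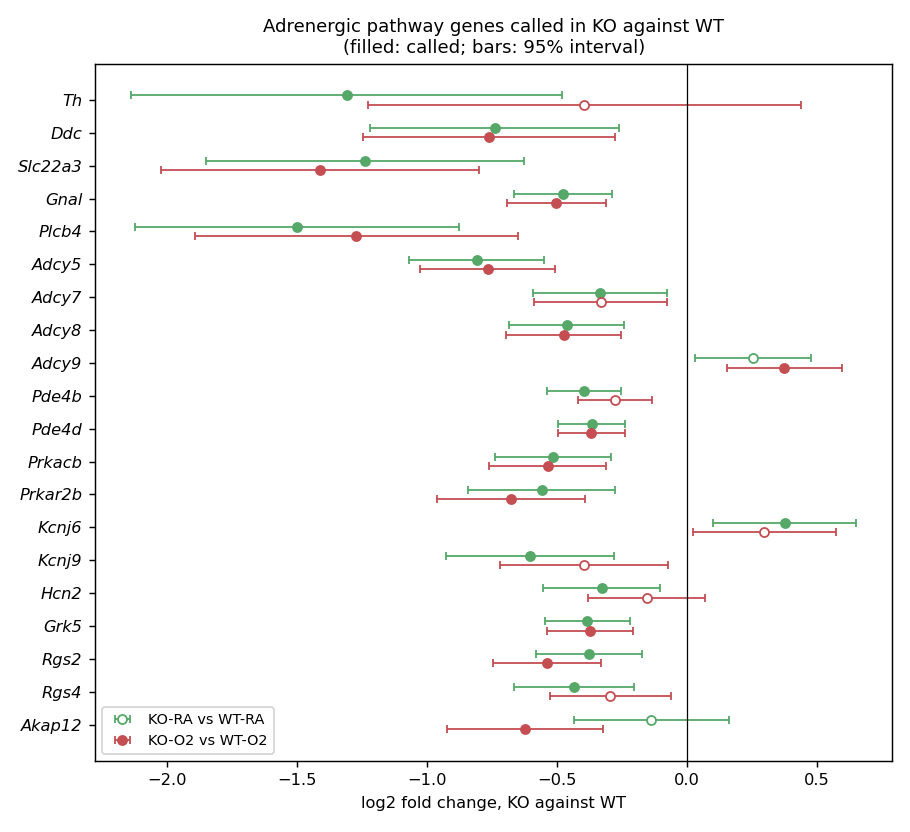
log2 fold change of KO against WT (x axis) with 95% intervals for the pathway genes called in room air (green) or hyperoxia (red), filled where called. Most lie left of 0, and Adcy9 and Kcnj6 lie to the right in both.

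The genes whose log2 CPM followed a receptor most closely over the 14 libraries are given as a description, since the libraries share the genotype split. For Adra1b they were Lgi2 (Pearson r = 0.974), Ankrd34c (0.970) and Klhl4 (0.967), and for Adra1d they were Arhgap39 (0.972), Mast3 (0.971) and Evc2 (0.970). Within the 8 wild-type libraries, r was 0.895 for Adra1b with Lgi2 and 0.678 for Adra1d with Arhgap39, and within the 6 knockout libraries 0.444 and 0.981. For Adra2a they were Prkacb (0.973), Pcdh10 (0.970) and Car10 (0.951), where Prkacb gave 0.953 within wild type and 0.386 within knockout. For Adra2b they were Ramp3 (0.961), Cit (0.940) and Zdhhc22 (0.935), with counts of Adra2b too low in knockout for its r there to be read. For Adra2c they were Hk2 (0.919), Rcor2 (0.891) and Tada2b (0.888), for Adrb1 Mtcl1 (0.938), Necab3 (0.925) and Abcb9 (0.917), and for Adra1a Pgr (0.916), Nap1l1 (0.904) and Bmp3 (0.876).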

How the data were processed

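Total RNA of the hippocampus was poly(A) selected and sequenced, 1 library per mouse. The deposited values are estimated counts of each gene, obtained per the methods with Kallisto on build GRCm39 and summed to genes by tximport. Versions and the use of strand are not given in the sources used here. The estimated counts were rounded. Genes were filtered with filterByExpr, normalized by TMM and fitted in edgeR 4.0.16 (R 4.3.3) with 1 coefficient per group over all 14 libraries, and compared by its quasi-likelihood test, with q from the Benjamini-Hochberg procedure over 16637 genes. The fit was tested on simulated data. DESeq2 1.42.0 was an alternative. The study's own call rule was kept (fold change, p and q, as the report gives them). Log2 CPM used a prior count of 2. Transcript lengths came from GENCODE M21 and promoters from RefSeq, both on GRCm38, which is not the study's build.

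Replicates are separate mice. The receptors, gene lists and tests were chosen with earlier results of these data known. The text names all 7 receptors, pathway genes that were called, marker genes where a result turns on them, and per receptor the 3 genes of highest correlation. Of 158 listed symbols, 158 were found.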

Additional observations from a re-analysis of the deposited data

Results flagged for a closer look

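Adra2b in WT-RA replicate 1 stood at 2.73 CPM (75 counts), apart from the other 3 WT-RA libraries, the nearest of which was at 1.253 CPM. The gap was 0.855 of the group's range, above the 95% critical value for 4 samples, and of 14 groups of 4 examined it was the one so marked; chance marks about 1 in 20. The same library had the highest summed thalamus markers of all 14, at 769 CPM, and the part of this in the Adra2b level was not tested. Without it and WT-O2 replicate 4, left out after seeing the data, the log2 difference of KO from WT was -2.03 in room air and -1.87 in hyperoxia, against -2.46 and -1.97 with all libraries, given as a description because Adra2b passed the filter on low counts through the wild-type groups.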

How the results depend on the processing

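With thalamus and striatum scores as covariates, 0 receptors were called in KO-O2 vs WT-O2, 0 in KO-RA vs WT-RA and 0 averaged over the exposures, and 1 (Adrb1; 341 of all genes) in WT-O2 vs WT-RA. At a fold of at least 1.5, 3 were called in KO-RA vs WT-RA (942 of all genes) and 3 averaged (1011). The reported fit called 1738 and 2004 of all genes there. In WT-O2 vs WT-RA, DESeq2 called 2 (306 of all genes), the oligodendrocyte score as covariate 2 (411) and leaving out mice GSD398 and GSD408 1 (210), against 107 genes in the reported fit, the last 2 alternatives chosen after seeing the data. Leaving out each mouse in turn gave 3 to 7 in KO-RA vs WT-RA and 0 to 1 in WT-O2 vs WT-RA. The 3 came without KO-RA replicate 1 (Adra1d, Adra2c and Adrb1 lost), where 1076 of all genes were called against 1738. The 1 was Adrb1, without WT-RA replicate 1 (272 of all genes) or without WT-RA replicate 4 (177). Small uncalled differences changed sign. Adra2a in WT-O2 vs WT-RA was 0.0106 with mouse GSD408 as room air, 0.00419 with the thalamus and striatum scores and -0.187 to 0.0522 leaving out a mouse. Adra1d there was 0.0193 without mice GSD398 and GSD408 and -0.0856 to 0.0219 leaving out a mouse. In KO-O2 vs KO-RA, Adra2b was 0.00901 with the oligodendrocyte score and -0.325 to 0.317 leaving out a mouse, Adra1a -0.0251 to 0.0732 and Adra1b -0.327 to 0.0270. The interaction for Adra2a was -0.206 to 0.0336. The cause was not tested. With the oligodendrocyte score, Adra2b lost its call in KO-RA vs WT-RA (-1.55) and KO-O2 vs WT-O2 (-1.38) and Adra1d in the former (0.30). In KO-RA vs WT-RA, Adra1a (-0.67, not called), Adra2a (-0.66), Adra2c (0.62) and Adrb1 (-0.69) had larger differences than reported in that fit. Averaged over the exposures, it lost the call of Adra2b (-1.46) and gained those of Adra1a (-0.53) and Adra2c (0.46). The tally by receptor left out the alternatives that changed only the fold or q threshold. Over the other alternatives, 931 receptor differences kept direction and call, 29 lost a call, 13 gained one and 14 changed sign. Adra2b could not be fitted with at least 10 counts in every library, nor between the KO groups alone. Depth limits Adra2b most, with 3 to 10 counts per knockout library. No paired analysis was possible because the labels carry no replicate numbers, those used here being given in accession order as names only.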
